A study of Mus musculus with 21 samples.

Results

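The microRNAs described here are the mature products of the Mirg cluster, the run of hairpins from miR-379 to miR-410 in the imprinted Dlk1-Dio3 domain of mouse chromosome 12. Members were the table rows for any arm of 36 named hairpins with a count in 5 or more of 21 libraries. Of 1903 named rows, 72 matched a hairpin name and 40 were members, from 28 hairpins. The read counts themselves therefore chose the members: 28 of the 72 rows were at 0 in every library and 4 had counts in 1 to 3 libraries (miR-543-5p in 1, miR-1197-3p and miR-758-3p in 2, miR-323-3p in 3). Just inside the limit stood miR-376a-3p and miR-134-3p, with counts in 7 libraries each.

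The tissue was left ventricular myocardium, and each of the 21 small RNA libraries came from a different C57BL/6J mouse. There were 4 groups: Sham, 5 mice after sham surgery without drug; TAC, 5 mice after aortic banding without drug; TAC+PDE5A-I, 5 banded mice given sildenafil, an inhibitor of phosphodiesterase 5A; and TAC+PDE9A-I, 6 banded mice given PF-04449613, an inhibitor of phosphodiesterase 9A. TAC, transverse aortic constriction, narrows the aorta and loads the left ventricle with pressure. Both enzymes break down cyclic GMP. Each drug was begun 1 week after surgery and continued for 4 weeks, and the sources used here do not give doses, age or sex. Whole myocardium was used, so a change in the number of cells that carry a microRNA cannot be told apart from a change in its amount per cell.

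As background, the cluster is transcribed from the maternal chromosome as a long noncoding RNA. Each hairpin in that RNA can yield a 5p and a 3p mature arm, and an arm recognises messenger RNAs mainly through its seed, bases 2 to 8. The cluster is abundant in embryo, placenta and brain and is low in most adult tissues. In muscle the domain is a known target of the transcription factor MEF2A, and miR-410 and miR-495 have been reported to promote proliferation of cardiac muscle cells.

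RefSeq held a mature sequence for 37 of the 40 members, on build GRCm38.p6, and miR-376c-3p, miR-485-5p and miR-487b-3p were not matched. The 37 lay between positions 109709065 and 109743784 of chromosome 12, a span of 34.72 kb, with 36 on the plus strand and miR-299b-3p on the minus strand. In GENCODE vM21, 15 of them lay inside transcripts of Mirg, the annotated host gene (109729764 to 109749460), and 22 had no annotated host on their strand. The sequences shown are 6 of the most abundant members, 5 further members called in a drug group, and the 3p arms of miR-411 and miR-379, which share a seed. They are printed 5′ to 3′ with the seed in capitals:

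miR-411-5p: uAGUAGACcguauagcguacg
miR-379-5p: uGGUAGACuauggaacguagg
miR-541-5p: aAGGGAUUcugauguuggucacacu
miR-300-3p: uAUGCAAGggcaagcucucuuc
miR-381-3p: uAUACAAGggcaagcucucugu
miR-410-3p: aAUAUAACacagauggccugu
miR-369-3p: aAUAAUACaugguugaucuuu
miR-376a-5p: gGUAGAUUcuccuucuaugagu
miR-376b-3p: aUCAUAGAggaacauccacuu
miR-495-3p: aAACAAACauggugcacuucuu
miR-668-3p: uGUCACUCggcucggcccacuacc
miR-411-3p: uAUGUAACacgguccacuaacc
miR-379-3p: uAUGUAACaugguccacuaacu

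The 37 sequences held 35 different seeds. One pair, miR-411-3p and miR-379-3p, shared the seed AUGUAAC and was identical at 20 of 22 bases, the differences being C10U and C22U (the base of the first named, its position from the 5′ end, the base of the second). The 5p arms of the same neighbouring hairpins were identical at 14 of 21 bases and differed inside the seed by A2G. For miR-300-3p and miR-381-3p 19 of 22 bases were identical, with G4A in the seed and U21G and C22U at the end. The other shared seed, AUGUGGG, belonged to miR-299a-3p and miR-299b-3p, and the 18 bases of miR-299b-3p were the first 18 of miR-299a-3p, so the authors' read assignment could split reads between that pair and both values are uncertain. GC content ran from 23.8% in miR-369-3p to 68.2% in both arms of miR-666, with a median of 45.5%, against 52.2% over the 1618 named microRNAs with a sequence. miR-411-5p (chr12:109710190-109710210) and miR-300-3p (chr12:109724363-109724384) lay before the annotated Mirg transcripts. miR-541-5p (chr12:109742422-109742446) and miR-369-3p (chr12:109743466-109743486) lay in a Mirg intron and miR-410-3p (chr12:109743764-109743784) in a Mirg exon.

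Depth differed between groups. Sham libraries held 3766517 to 7490436 counts, TAC libraries 5373960 to 8497792 and TAC+PDE5A-I libraries 1205417 to 3969716. For TAC+PDE9A-I the range was 4785164 to 7532591, apart from replicate 5 with 1546318. The 4 shallowest libraries, with at most 1631406 counts each (TAC+PDE5A-I 3, 4 and 5 and TAC+PDE9A-I 5), also stood apart in composition. In these 4 the endothelial microRNA miR-126a (both arms) took 0.111% to 0.325% of counts, against 1.20% and 1.77% in the other TAC+PDE5A-I libraries and 2.66% to 4.28% in the 15 remaining libraries. Calls in the drug groups are therefore also given without these 4 libraries. A level of 3 counts was used as the upper limit for a count of 0. It was worth 0.471 CPM (counts scaled to library size with TMM factors) on average in TAC and 1.60 CPM in TAC+PDE5A-I. The deposited table held no value of 1, and its smallest value above 0 was 2. A minimum count may therefore have been applied before deposit. The folds given below as at least some value hold only if a deposited 0 means that no read was seen. Reads carry no molecular identifiers, so such limits cover counting error only.

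The cluster was a small part of the myocardial microRNAs and its members were very unequal. Members together took 0.0402% ± 0.00487 of counts in Sham (SD, n = 5) and 0.0793% ± 0.0152 in TAC (n = 5). Every TAC library (0.0618% to 0.0956%) was above every Sham library (0.0345% to 0.0476%). In TAC+PDE5A-I the share was 0.0441% ± 0.0139 (0.0307% to 0.0653%, n = 5), overlapping both. These shares depend on the denominator. They were also taken with a set of 4 abundant microRNAs, not named here, left out of the total. TAC+PDE5A-I libraries were then at 0.0887% to 0.132%, all above the Sham libraries (0.0615% to 0.0854%) and overlapping TAC (0.108% to 0.157%). Whether another set would give the same order of groups was not tested. The shares that follow are again of all counts. The 6 TAC+PDE9A-I libraries spread over the whole range, at 0.0669%, 0.0417%, 0.0847%, 0.103%, 0.0361% and 0.0407% for replicates 1 to 6. These shares are a description of rows chosen on their counts and were not tested. Counts were found for 28 to 35 of the 40 members in a Sham library, 33 to 40 in TAC, 17 to 28 in TAC+PDE5A-I, 31 to 39 in TAC+PDE9A-I apart from 18 in its replicate 5.

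**Figure D1:**
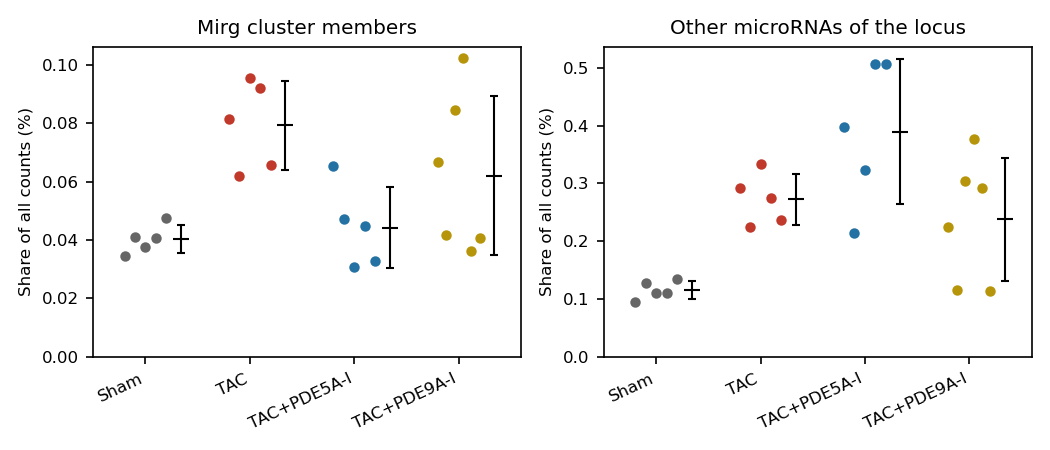
Share of all counts (%) per library for the Mirg cluster members (left) and for other microRNAs of the Dlk1-Dio3 locus (right); points are mice, bars are mean and SD. TAC libraries lie above Sham libraries in both panels, and TAC+PDE5A-I libraries lie at 0.0307% to 0.0653% on the left and at 0.213% to 0.507% on the right.

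A single arm, miR-411-5p, supplied 40.7% ± 2.35 of all member counts in Sham and 46.7% ± 3.55 in TAC. The next, miR-541-5p, supplied 18.5% in Sham and 18.3% in TAC. In TAC+PDE5A-I the 2 were closer, at 28.7% ± 5.61 and 27.6%. By mean level over the 21 libraries the order was miR-411-5p (231 CPM), miR-541-5p (115 CPM), miR-300-3p (32.6 CPM), miR-410-3p (27.7 CPM), miR-381-3p (24.4 CPM), miR-379-5p (16.1 CPM), miR-409-3p (16.01 CPM), miR-668-3p (8.51 CPM), miR-134-5p (8.33 CPM) and miR-329-3p (6.77 CPM). These are sequenced reads of different arms, and ligation and amplification differ between sequences, so the order is one of counts. The first 2 were separated in all Sham and TAC libraries, while miR-300-3p, miR-410-3p and miR-381-3p overlapped in Sham (19.1 to 28.8 CPM). All but the leading 7 were under 10 CPM.

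**Figure D2:**
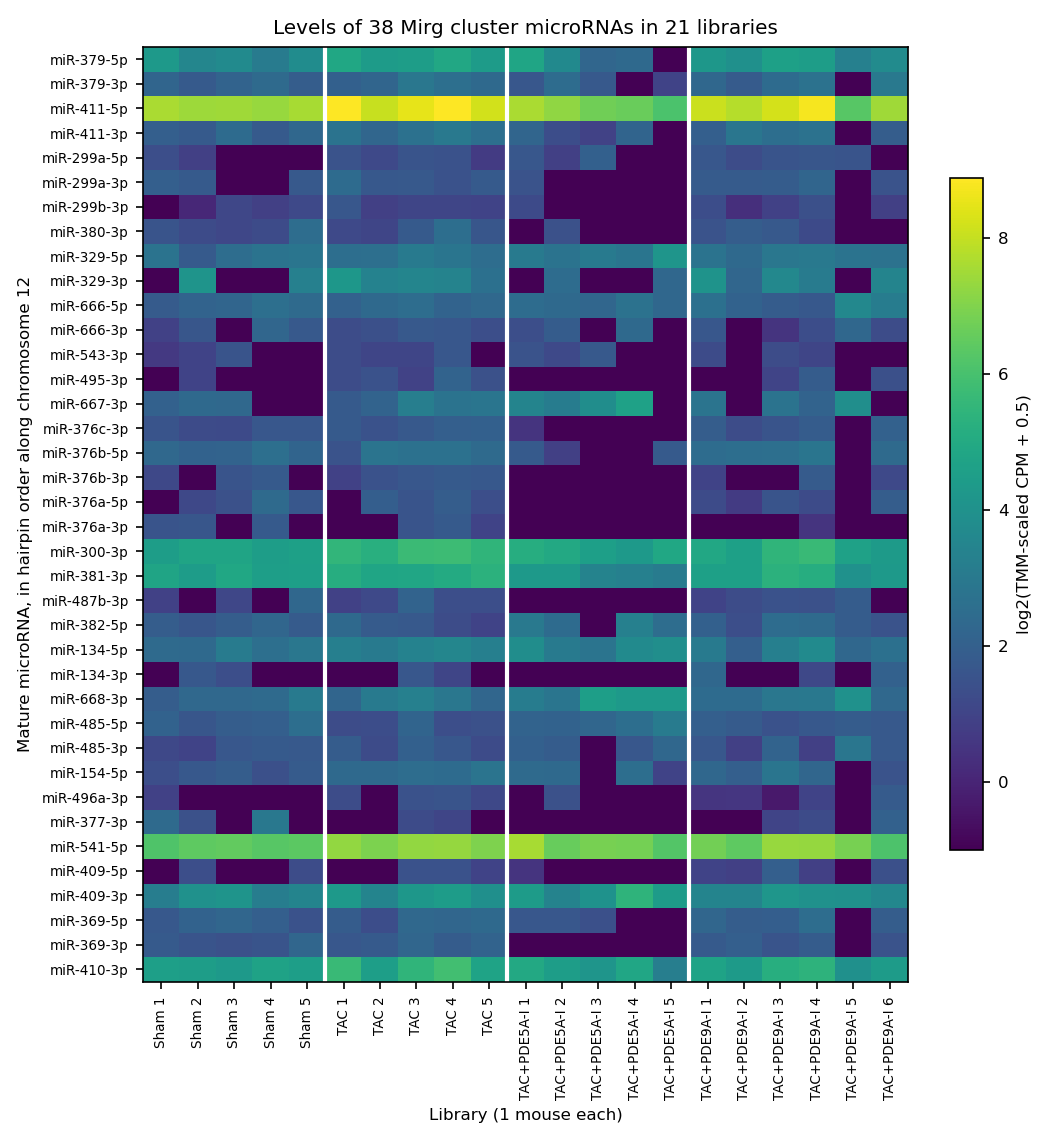
Levels of the 38 members that passed the filter (rows, in hairpin order along chromosome 12) in 21 libraries (columns), as log2(TMM-scaled CPM + 0.5); dark purple cells are counts of 0. The bright rows are miR-411-5p and miR-541-5p, and dark cells gather in TAC+PDE5A-I 3 to 5 and TAC+PDE9A-I 5.

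Of the 40 members 38 passed the edgeR filter on low counts, and miR-377-5p (counts in 8 libraries, at most 15) and miR-494-3p (9 libraries, at most 14) were not tested. Because a member can pass the filter through 1 group alone, counts of called members are a description of those 38 and not of the cluster.

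The first question was which members respond to pressure overload. TAC was compared with Sham. One member, miR-300-3p, was higher and 0 were lower (edgeR quasi-likelihood test, adjusted p under 0.05 over the 561 microRNAs tested). Over all 561, 2.14% were called higher and 0.178% lower. At an unadjusted p under 0.05 there were 4 members and 88 microRNAs in all. The median log2 fold change was 0.53 over the 38 members and -0.08 over the 561, and 32 of the 38 estimates were above 0.

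For miR-300-3p the Sham libraries read 22.3, 26.9, 26.5, 21.9 and 23.8 CPM and the TAC libraries 44.6, 37.3, 52.1, 54.5 and 43.8 CPM. The groups did not overlap. The mean went from 24.3 ± 2.33 to 46.5 ± 6.91 CPM (SD, n = 5 each), a log2 fold change of 0.94 ± 0.23 (SE, edgeR adjusted p = 0.0374). Leaving out single libraries ended this call in 9 of 10 cases, all but TAC 2 (adjusted p 0.0336 to 0.131), and the log2 fold change stayed between 0.88 and 1.12. Within the ear tag ranges in the sample labels, the difference in mean log2 CPM was 0.69 among 100s tags and 1.09 among 600s tags. The call ended when ear tag range entered the fit as a term, and also when replicate number entered as a block, and each left 0 members higher.

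The most abundant member, miR-411-5p, read 198.9, 170, 175, 165 and 193 CPM in Sham and 466.1, 262, 360, 469 and 295 CPM in TAC. All 5 TAC libraries were above all 5 Sham libraries, and TAC 1 and TAC 4 were the highest. Its log2 fold change was 1.04 ± 0.34 and did not pass in this fit (edgeR adjusted p = 0.104). Its neighbour miR-379-5p, from the first hairpin of the cluster, read 8.10 to 19.4 CPM in Sham and 20.7 to 30.2 CPM in TAC, again without overlap, with a log2 fold change of 0.92 ± 0.56 (adjusted p = 0.519).

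Near the far end of the cluster, miR-541-5p read 70.6, 85.4, 89.5, 79.7 and 82.6 CPM in Sham and 153, 120, 155.1, 159 and 124.4 CPM in TAC. Here too the groups were apart, with a log2 fold change of 0.80 ± 0.25 (adjusted p = 0.0951). miR-410-3p, from the last hairpin, read 19.1 to 25.1 CPM in Sham and 51.1, 22.9, 43.8, 58.6 and 25.8 CPM in TAC, so TAC 2 and TAC 5 lay inside or next to the Sham range (log2 fold change 0.84 ± 0.33, adjusted p = 0.180). Groups were apart for 5 members, all in the direction of TAC: miR-300-3p, miR-411-5p, miR-379-5p, miR-541-5p and miR-154-5p. Over all 561, 8.38% were apart in that direction and 8.56% in the other.

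The result depended on which libraries shared the estimate of spread. When TAC and Sham were fitted alone, 9 of the 30 members tested were higher and 0 lower, against 14.8% and 4.54% of 507 microRNAs. The 9 were miR-134-5p, miR-154-5p, miR-300-3p, miR-379-5p, miR-381-3p, miR-410-3p, miR-411-3p, miR-411-5p and miR-541-5p, which span the cluster from its first to its last hairpin. In that fit miR-300-3p had a log2 fold change of 1.06 ± 0.13 (adjusted p = 0.000273), miR-411-5p of 1.17 ± 0.17 (adjusted p = 0.000587) and miR-541-5p of 0.93 ± 0.13 (adjusted p = 0.000587). With all groups but without the 4 shallowest libraries, 5 of 39 members were higher and 0 lower, against 6.97% and 4.39% of 660. These 5 were the same members as those whose groups were apart, and miR-411-5p then had a log2 fold change of 1.02 ± 0.22 (adjusted p = 0.0110).

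**Figure D3:**
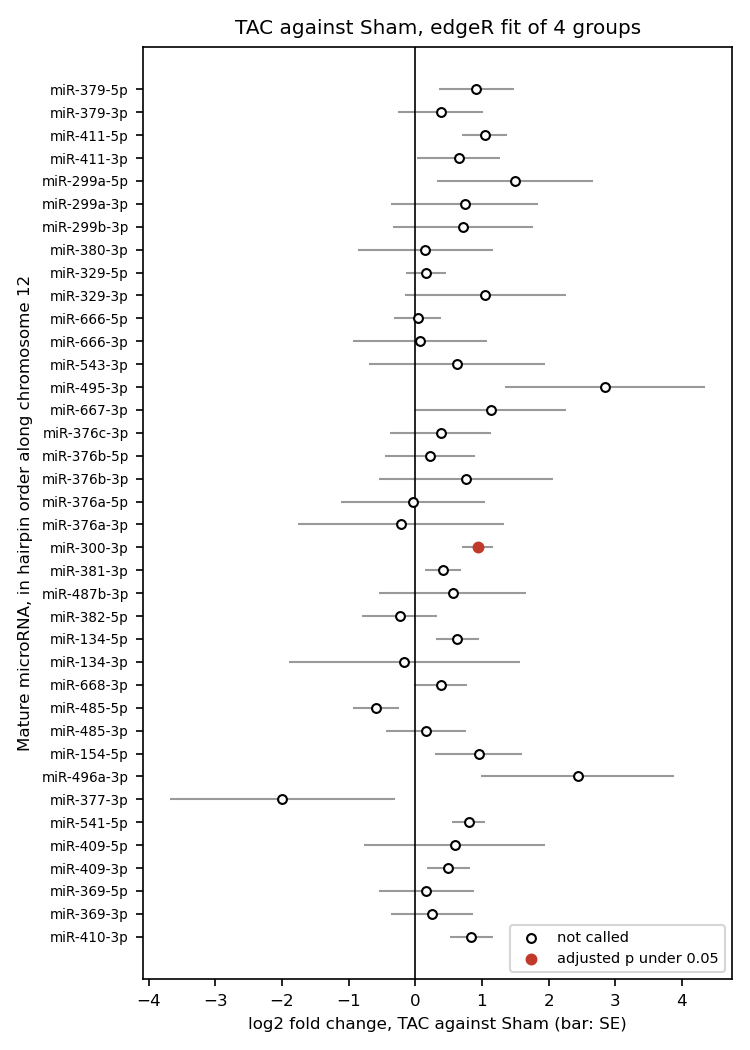
Log2 fold change of TAC against Sham for the 38 members tested, in hairpin order along chromosome 12; bars are SE and the filled point is the member with an adjusted p under 0.05, miR-300-3p. Most points lie to the right of 0 along the whole cluster, and members with few counts have wide bars.

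Position and arm were next set beside these values. Members before the annotated Mirg transcripts had a median log2 fold change of 0.65 (21 tested) and those inside them of 0.44 (14 tested). Medians were 0.41 over the 14 5p arms and 0.53 over the 24 3p arms. The 10 most abundant members all had estimates above 0, with a median of 0.82, and the other 28 had a median of 0.32. Negative estimates came from members with low counts, such as miR-485-5p at 3.73 ± 1.04 CPM in Sham and 2.46 ± 0.87 CPM in TAC (-0.59 ± 0.35, adjusted p = 0.501).

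Other microRNAs of the same imprinted domain were set beside the members. Their share of counts was 0.115% ± 0.0156 in Sham and 0.273% ± 0.0441 in TAC, with no overlap. Of 17 tested, 1 was higher and 0 were lower, with a median log2 fold change of 0.65. The one called was miR-127-3p, at 1039 ± 97.6 CPM in Sham and 2344 ± 440 CPM in TAC (1.17 ± 0.29, adjusted p = 0.0349). It is named because it was called. Among the cell type marker lists, only the stromal one was apart between Sham and TAC, and all others overlapped. Endothelial miR-126a, for example, averaged 3.43% of counts in Sham and 3.51% in TAC. The stromal microRNAs miR-199a, miR-199b and miR-214 (5 of 5 rows detected) took 0.197% to 0.258% of counts in Sham and 0.551% to 0.882% in TAC. The heart muscle list (9 of 9 rows detected) took 13.8% to 15.9% in Sham and 7.02% to 14.6% in TAC. Of the neuronal list 6 of 10 rows were detected, at 0.0441% to 0.0616% of counts in Sham and 0.0363% to 0.0458% in TAC. The rows at 0 were miR-124-3p, miR-124-5p, miR-128-2-5p and miR-219a-2-3p. The part of these cell types in the members' levels was not tested.

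The second comparison asked how sildenafil bears on the overloaded heart. In TAC+PDE5A-I against TAC, 10 of the 38 members were lower, 2 were higher and 26 did not pass (edgeR, adjusted p under 0.05). Over all 561 microRNAs, 24.8% were lower and 21.6% higher, so the share of members called lower was close to the background and the share called higher below it. The median log2 fold change was -1.27 over the members and -0.31 over all. With microRNAs at 0 in all 5 drug libraries set to their bounds, the medians were -0.58 and -0.18. Groups were apart for 10 members downward and 0 upward, against 20.7% and 13.2% of all.

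Among the abundant members, miR-411-5p was lower. The TAC+PDE5A-I libraries read 197, 151, 106, 97.8 and 67.9 CPM, all below the 262 CPM of the lowest TAC library, and 4 of the 5 were also below the lowest Sham library (165 CPM). The mean was 123.8 ± 50.4 CPM (SD, n = 5), a log2 fold change of -1.58 ± 0.34 (adjusted p = 0.0020). Without the shallow libraries, which leaves replicates 1 and 2, the value was -1.07 ± 0.31 (adjusted p = 0.0215). Within ear tag ranges, the difference was -1.06 among 500s tags (2 drug libraries and 1 TAC library) and -2.06 among 600s tags (3 and 2). The 500s drug libraries are replicates 1 and 2 and the 600s ones are the shallow libraries. This split of the drug group is thus the same as the split by depth and is no separate check.

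The 2 near-identical 3p arms shown above were both lower. miR-381-3p read 19.5, 19.2, 10.1, 9.44 and 8.21 CPM with the drug against 27.8 to 40.5 CPM in TAC (-1.28 ± 0.27, adjusted p = 0.00195). For miR-300-3p the drug libraries read 35.3, 30.4, 23.2, 19.6 and 29.1 CPM against 37.3 to 54.5 CPM in TAC (-0.75 ± 0.24, adjusted p = 0.0157). Neither overlapped with TAC, and in miR-381-3p the drug libraries were also below the lowest Sham library (21.4 CPM). Without the 4 shallow libraries both lost their calls, at -0.75 ± 0.26 (adjusted p = 0.0502) and -0.48 ± 0.29 (adjusted p = 0.284).

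miR-410-3p was lower in the fit as well, at 30.8, 22.4, 17.4, 28.3 and 8.95 CPM against 22.9 to 58.6 CPM in TAC, ranges that overlapped (-0.90 ± 0.33, adjusted p = 0.0319). The call ended without TAC 1, TAC 4, TAC+PDE5A-I 3 or TAC+PDE5A-I 5 (adjusted p at most 0.0931), and without the 4 shallow libraries (-0.58 ± 0.36, adjusted p = 0.289). miR-541-5p, the second most abundant member, read 194, 95.02, 114, 112 and 75.4 CPM against 120 to 159 CPM (-0.27 ± 0.25, 95% interval -0.78 to 0.24, adjusted p = 0.395), and its sign turned under upper-quartile scaling (0.21). Without TAC+PDE5A-I 1, the highest library, miR-541-5p was called lower (-0.78, adjusted p = 0.0206), and without the 4 shallow libraries it was at 0.037 (adjusted p = 0.980). miR-379-5p read 27.2, 12.5, 4.35, 4.72 and 0 CPM against 20.7 to 30.2 CPM and did not pass (-1.27 ± 0.57, adjusted p = 0.0745), although TAC+PDE5A-I 1 alone lay inside the TAC range. Without that library its log2 fold change was -2.28 (adjusted p = 0.00624), and without the 4 shallow libraries it was -0.29 ± 0.33 (adjusted p = 0.595).

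**Figure D4:**
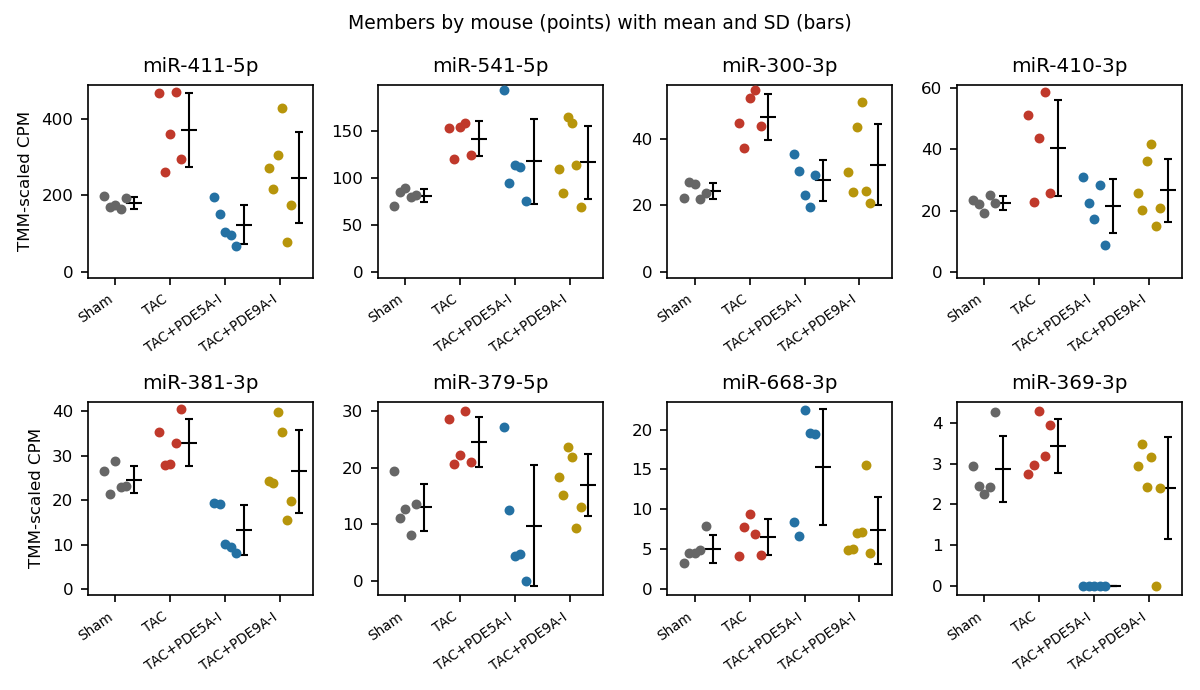
TMM-scaled CPM per mouse for 8 members, with mean and SD beside each group; each panel has its own linear axis. miR-411-5p and miR-381-3p lie lower in TAC+PDE5A-I than in TAC, miR-668-3p is high in TAC+PDE5A-I 3 to 5 and TAC+PDE9A-I 5, and miR-369-3p is at 0 in all 5 TAC+PDE5A-I libraries and in TAC+PDE9A-I 5.

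The other members called lower had few counts. miR-369-3p, an AU-rich arm known to bind AU-rich elements of messenger RNAs, read 2.75, 2.96, 4.30, 3.18 and 3.95 CPM in TAC and 0 in all 5 drug libraries. Against a floor of 3 counts per library it was at least 2.14-fold lower (adjusted p = 0.000381), and the call held without the 4 shallow libraries (adjusted p = 6.62e-05). The miR-376 family, whose precursors are known targets of A-to-I editing in brain, gave 3 of the 10. miR-376c-3p read 2.29 to 3.58 CPM in TAC and 0.898 CPM in 1 drug library, and was called lower (adjusted p = 0.00571). Its 3 counts in the drug group against 99 in TAC give a level 12.01-fold higher in TAC, with an exact 95% interval of 3.99 to 59.2 that covers counting error only. miR-376a-5p was at 0 in the drug group and in TAC 1, at least 1.39-fold lower (adjusted p = 0.00937). miR-376b-3p, with counts in all 5 TAC libraries and in 0 drug libraries, was at least 1.52-fold lower (adjusted p = 0.0186).

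A further pair was at 0 throughout the drug group, miR-487b-3p (at least 1.39-fold lower, adjusted p = 0.0104) and miR-495-3p (at least 1.48-fold lower, adjusted p = 0.0242). The latter lies outside the rule for naming and was chosen after its values were seen. It had counts in all 5 TAC libraries, 3 TAC+PDE9A-I libraries and 1 Sham library, so it passed the filter through the groups where it was present. In the fit of TAC+PDE5A-I and TAC alone, miR-376a-5p, miR-376b-3p, miR-487b-3p and miR-495-3p did not pass the filter and have no test. Without the 4 shallow libraries all 4 lost their calls, with adjusted p of 0.0502 for miR-376a-5p, 0.111 for miR-376b-3p, 0.0804 for miR-487b-3p and 0.146 for miR-495-3p. The bounds of these low members are small because the drug libraries are shallow. Another 3, miR-134-3p, miR-376a-3p and miR-377-3p, were at 0 in the drug group and below its floor in TAC, and no fold is given for them.

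The members called higher numbered 2. miR-668-3p read 4.12, 7.80, 9.45, 6.96 and 4.33 CPM in TAC and 8.38, 6.71, 22.5, 19.6 and 19.4 CPM with the drug (1.20 ± 0.41, adjusted p = 0.0208). The 3 high values are those of the 3 shallow libraries. Without the 4 shallow libraries the estimate was 0.21 ± 0.37 (adjusted p = 0.739), and within ear tag ranges it was -0.32 among 500s tags and 1.82 among 600s tags. The 600s drug libraries are the shallow ones, so the ear tag split repeats the split by depth. miR-485-5p, at 2.46 ± 0.87 CPM in TAC and 5.13 ± 1.83 CPM with the drug (1.03 ± 0.35, adjusted p = 0.0220), overlapped between the groups, lost its call in 8 of 10 cases when single libraries were left out, and did not pass without the shallow libraries (0.65 ± 0.44, adjusted p = 0.346).

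Without the 4 shallow libraries, 4 of 39 members were lower and 0 higher, against 12.3% and 6.21% of 660. The 4 were miR-369-3p, miR-411-5p, miR-376c-3p and miR-376b-5p. Of these, miR-376b-5p was not called with all libraries (5.12 ± 1.65 CPM in TAC, 1.46 ± 1.496 CPM with the drug, adjusted p = 0.0601). In a fit of the 2 groups alone, 6 of 25 members were lower and 1 was higher, against 21.6% and 23.2% of 462. Upper-quartile scaling moved the median of all 561 by 0.46 upward and called 172 microRNAs higher and 110 lower in place of 121 and 139. It called 5 members higher.

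Base composition went along with these values. Spearman's rho between GC content and log2 fold change was 0.61 over the 35 members with a sequence and 0.70 over 452 other microRNAs, which share the same libraries, as a description. Over the 28 members with counts in both groups it was 0.54, and without the 4 shallow libraries it was 0.59 over 36 members. Of the 8 tested members with under 40% GC, miR-377-3p has no fold, the other 7 had negative estimates or bounds, and 4 were lower, namely miR-369-3p, miR-376b-3p, miR-495-3p and miR-410-3p. Of the 22 with 40% to 60% GC, 4 were lower and 0 higher, with a median of -1.23, or -0.69 with members at 0 in the drug group set to their bounds. Of the 5 with over 60%, miR-668-3p was higher and 0 were lower, with a median of 0.15. In TAC against Sham the same rho was -0.06 over the members and 0.06 over the others. In TAC+PDE9A-I against TAC it was 0.38 over the members and 0.35 over the others. Without the 4 shallow libraries the member value in that comparison was 0.07.

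With GC content fitted in each library as an offset, over the microRNAs with a sequence, 3 of 35 members were lower and 3 higher, against 10.3% and 19.5% of all microRNAs in that fit. miR-411-5p was still lower (-0.93 ± 0.22, adjusted p = 0.00571), as were miR-369-3p and miR-376a-5p. miR-410-3p turned from lower to higher (1.27 ± 0.43, adjusted p = 0.0323). miR-541-5p (1.01 ± 0.35, adjusted p = 0.0357) and miR-329-5p (1.85 ± 0.46, adjusted p = 0.00627) were called higher, and miR-381-3p (-0.35) and miR-300-3p (-0.30) did not pass. In the same corrected fit, miR-300-3p (0.85 ± 0.23, adjusted p = 0.0316) and miR-411-5p (0.96 ± 0.22, adjusted p = 0.0151) were higher in TAC than in Sham and 0 were lower, against 4.11% and 0.616% of all. Between the drug groups it called 2 members higher and 1 lower, against 6.98% and 6.98% of all, and in TAC+PDE9A-I against TAC 0 and 0, against 0% and 0.205%. The part of base composition in the drug result was not tested beyond this fit.

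**Figure D5:**
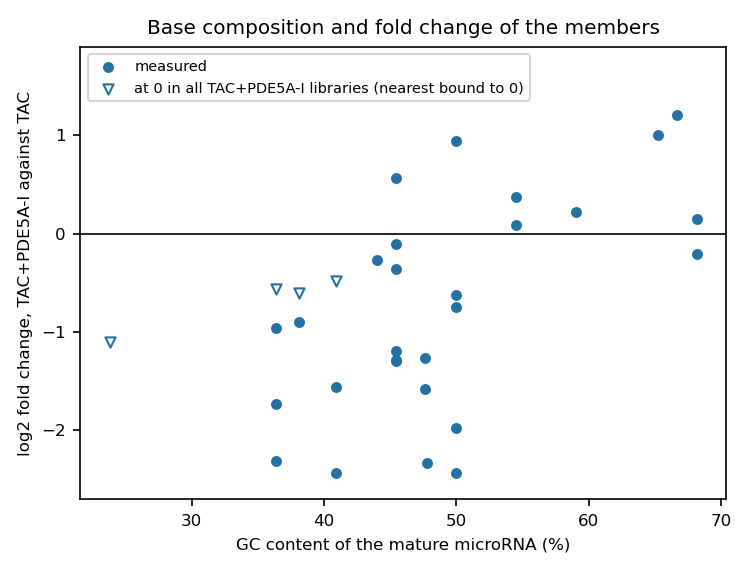
Log2 fold change of TAC+PDE5A-I against TAC (y axis) against the GC content of the mature arm (x axis, %) for the members with a sequence; triangles are members at 0 in all drug libraries, drawn at the bound nearest to 0, and the 3 members without a fold are left out. Members with under 40% GC lie below 0 and miR-668-3p, at 66.7% GC, is the highest point.

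Several of the cell type marker lists moved with the drug group as well. Smooth muscle microRNAs (miR-143 and miR-145a, 4 of 4 rows detected) took 7.61% to 13.0% of counts in TAC and 0.542% to 4.89% in TAC+PDE5A-I. Stromal microRNAs took 0.551% to 0.882% and 0.136% to 0.387%, and heart muscle microRNAs 7.02% to 14.6% and 15.9% to 22.8%. In the deeper TAC+PDE5A-I 1 and 2 alone, smooth muscle microRNAs took 3.38% and 4.89%, stromal microRNAs 0.387% and 0.296%, and heart muscle microRNAs 16.3% and 15.9%. Their part in the members' levels was not tested. Other microRNAs of the locus had a share of 0.390% ± 0.125 with the drug and 0.273% ± 0.0441 in TAC, and whether they differ from the members in this was not tested. Of the 17 tested, 3 were higher and 5 lower. The higher ones were miR-433-3p, miR-540-3p and miR-673-5p, the lower ones both arms of miR-136, both arms of miR-434 and miR-337-3p, all named because they were called.

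The third comparison set the PDE9A inhibitor against TAC alone, sharing the TAC libraries with the comparisons above. Of the 38 members 0 were higher and 0 lower (edgeR), against 0% and 0% of 561. At an unadjusted p under 0.05 there was 1 member and 16 microRNAs in all. DESeq2's Wald test also called 0 members, and 1 microRNA in all. The member was miR-300-3p, at 29.9, 23.9, 43.3, 50.8, 24.4 and 20.6 CPM in replicates 1 to 6 against 37.3 to 54.5 CPM in TAC (-0.53 ± 0.22, 95% interval -0.99 to -0.06, adjusted p = 0.991). Replicates 3 and 4 lay inside the TAC range and the other 4 below it.

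miR-411-5p read 272, 216, 305, 427, 79.4 and 175 CPM, and replicates 1, 3 and 4 lay inside the TAC range of 262 to 469 CPM (-0.59 ± 0.32, 95% interval -1.26 to 0.07). miR-410-3p read 14.996 to 41.6 CPM (-0.60 ± 0.31, 95% interval -1.24 to 0.05). Both intervals include 0 and also log2 values below -1, so at this number of mice a decrease of that size was not separable from none. The median log2 fold change over the members was -0.30, against -0.04 over all 561, and 28 of the 38 estimates were below 0. Without the 4 shallow libraries 0 of 39 members were called (0% and 0.303% of 660 higher and lower) and the member median was -0.17.

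Within this drug group the libraries differed widely. Replicates 1, 3 and 4 had member shares of 0.0669%, 0.0847% and 0.103%, shares of other locus microRNAs of 0.225%, 0.304% and 0.376%, and stromal shares of 0.823%, 0.858% and 1.62%. Replicates 2 and 6 had member shares of 0.0417% and 0.0407%, near Sham, shares of other locus microRNAs of 0.116% and 0.114%, and stromal shares of 0.399% and 0.271%. Replicate 5 combined a low member share (0.0361%) with a high share of other locus microRNAs (0.292%) and the lowest stromal share (0.114%). With the same set of 4 abundant microRNAs as above out of the total, its member share was 0.0994%. That was above replicates 2 and 6 (0.0720% and 0.0741%) and above every Sham library. The miR-369-3p level in it was 0, against 2.41 to 3.47 CPM in the other 5, and miR-668-3p was 15.6 CPM against 4.59 to 7.21 CPM.

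The drug groups were then compared directly at the matched time, which also tests the difference between the 2 drug effects. In TAC+PDE5A-I against TAC+PDE9A-I, 6 members were lower and 1 was higher, against 19.6% and 15.2% of 561. The groups overlapped for all 7 of these members. Over all members, groups were apart for 1 upward (miR-485-5p, adjusted p = 0.0752, not called) and 0 downward, against 1.25% and 0.713% of 561. miR-381-3p was at 13.3 ± 5.56 CPM with the PDE5A inhibitor (n = 5) and 26.5 ± 9.28 CPM with the PDE9A inhibitor (n = 6), a log2 difference of -0.97 ± 0.26 (adjusted p = 0.0132). miR-411-5p was at 123.8 ± 50.4 and 246 ± 119 CPM (-0.99 ± 0.33, adjusted p = 0.0263), a call that ended without TAC+PDE5A-I 3, 4 or 5 or TAC+PDE9A-I 3 or 4. The other lower members were miR-369-3p (at least 1.501-fold, adjusted p = 0.00127), miR-376c-3p (3 counts against 95, a level 11.1-fold higher with the PDE9A inhibitor, exact 95% counting interval 3.69 to 54.8, adjusted p = 0.0139), miR-376a-5p (at least 1.11-fold, adjusted p = 0.0157) and miR-487b-3p (at least 1.15-fold, adjusted p = 0.0177). miR-668-3p was higher (1.06 ± 0.39, adjusted p = 0.0396), a call lost in 8 of 11 cases when single libraries were left out.

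For other members the drugs were not told apart. The log2 difference was 0.01 for miR-541-5p (95% interval -0.48 to 0.50), with its sign changing under other scalings, -0.22 for miR-300-3p (-0.69 to 0.25) and -0.30 for miR-410-3p (-0.96 to 0.36). In a fit of the 2 drug groups alone 0 microRNAs were called (edgeR; 0% higher and 0% lower), with 162 at an unadjusted p under 0.05, 3 of them members. That fit tested 23 members. miR-369-3p, miR-376a-5p, miR-376c-3p and miR-487b-3p did not pass its filter and have no test there. Without the 4 shallow libraries 2 of 39 members were lower, miR-369-3p and miR-376b-5p, and 0 were higher, against 12.7% and 3.03% of 660. The calls of miR-381-3p, miR-411-5p, miR-376c-3p, miR-376a-5p, miR-487b-3p and miR-668-3p ended there (adjusted p 0.0522 to 0.499). Total counts were 1205417 to 3969716 with the PDE5A inhibitor. With the PDE9A inhibitor they were 4785164 to 7532591, apart from 1546318 in replicate 5. Depth and drug can therefore not be told apart here.

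Which arm of each hairpin was kept was examined through the ratio of 5p to 3p counts, a measure that the scaling of libraries does not touch. Of the 161 hairpins with both arms tested, 11 were in the cluster. In miR-411 the 5p arm made up 98.0% of counts in Sham, 98.4% in TAC, 98.2% in TAC+PDE5A-I and 98.3% in TAC+PDE9A-I. In miR-379, its neighbour with the same 3p seed, the 5p arm made up 78.0%, 82.8%, 80.8% and 79.0%. miR-409 was the reverse, with 6.54% of counts on the 5p arm in Sham and 7.13% in TAC. Both arms of miR-369 were used about equally, at 53.2% in Sham and 52.1% in TAC.

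In TAC against Sham 0 of the 11 ratios changed (limma, adjusted p under 0.05), against 0% of 161. The smallest p belonged to miR-329, whose 3p arm was at 0 in 3 Sham libraries (log2 difference -3.66 ± 1.54, limma adjusted p = 0.722). In TAC+PDE5A-I against TAC, 2 of 11 changed, against 41% of 161. The 5p to 3p ratio was higher in miR-369 (log2 difference 2.26 ± 0.79, adjusted p = 0.0282), where the 3p arm was at 0 in the drug group, and in miR-329 (4.12 ± 1.54, adjusted p = 0.0379). These rest on a pseudocount of 0.5 for the absent arm. No member hairpin had both arms at an average of at least 50 counts, so a fit with that limit could not test these calls. In TAC+PDE9A-I against TAC 0 of 11 changed, against 0.621%, and between the drugs 0 of 11, against 28%.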

How the data were processed

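The deposited values are raw counts, whole numbers per mature microRNA with no normalization. DESeq 1.26.0, Bowtie 1.1.1, cutadapt 1.8 and CASAVA 1.8.4 are listed in the submitters' processing notes, with no step assigned to any, and build and annotation were not given in the sources used here. The table has 25958 lines, of which 24055 hold no name and were left out. Libraries were made from 500 ng of total RNA with the TruSeq Small RNA kit, per the labels' protocols. Counts were tested with edgeR 4.0.16 in R 4.3.3 (quasi-likelihood F test, TMM scaling, filterByExpr, 1 fit of the 4 groups, Benjamini-Hochberg adjustment over 561 microRNAs, threshold 0.05), and 5p to 3p ratios with limma 3.58.1 on log2((5p + 0.5)/(3p + 0.5)). Levels are TMM-scaled CPM, and ± on a log2 fold change is its SE. The code was tested on simulated data. Named members were the 10 most abundant, those called (at most 8 per direction, or the 3 smallest p), their other arms, and hairpins with changed ratios. Members and lists were chosen with earlier results of these data known. DESeq2 1.42.0 and other scalings, filters and covariates were alternatives. The fit without the 4 shallowest libraries was added after seeing the data, as were the counting intervals. Ear tag ranges are those of the labels and are not known to be batches.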

Additional observations from a re-analysis of the deposited data

Results flagged for a closer look

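Of 68 checks for a library far from the rest of its group, 5 picked out a library. The nominal chance rate of about 1 in 20 presumes continuous values. It does not hold for members with counts of 0, so the 5 cannot be read against it. In TAC+PDE9A-I 5, miR-668-3p was at 15.6 CPM (others 4.59 to 7.21 CPM) and miR-369-3p at 0 CPM (others 2.41 to 3.47 CPM). In TAC 3, miR-485-5p was at 4.01 CPM (others 1.96 to 2.26 CPM) and miR-487b-3p at 3.87 CPM (others 1.37 to 2.08 CPM). In TAC+PDE5A-I 1, miR-376c-3p was at 0.898 CPM and at 0 in the other 4 libraries. Of those 4, 3 have floors of 1.84 to 2.49 CPM, above that value, and any count beside zeros would have been picked, so this one shows no difference between libraries.

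The effects of the 2 drugs, each against TAC, differed by the direct test for 7 members. The log2 difference was -0.97 for miR-381-3p, -0.99 for miR-411-5p and 1.06 for miR-668-3p. The fitted -3.30 for miR-376c-3p rests on 1 library with counts in TAC+PDE5A-I and ranged from -6.70 to -3.02 when single libraries were left out. The fitted values of -6.62 for miR-369-3p and -6.19 for both miR-376a-5p and miR-487b-3p are set against libraries all at 0, depend on the prior count and are no bounds.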

How the results depend on the processing

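Counts over all microRNAs under the same setting are given in parentheses. In TAC against Sham, the count of members higher was 1 (12), and 2 with upper-quartile scaling (13) or GC correction (20), 3 with DESeq2's Wald test (33), 9 with the 2 groups alone (75), 5 without the 4 shallowest libraries (46), and 0 with the ear tag covariate (4) or the replicate block (12). In TAC+PDE5A-I against TAC, the count higher was 2 (121), and 5 with upper-quartile scaling (172), 1 with DESeq2 size factors (91) or the 2 groups alone (107), and 0 without the filter (58), with the ear tag covariate (99) or without the shallow libraries (41). The count lower was 10 (139), and 16 with the Wald test (182), 6 with the 2 groups alone (100), 4 without the shallow libraries (81) and 3 with GC correction (50). Between the drugs, the count higher was 1 (85), and 5 with upper-quartile scaling (138), 2 with GC correction (34), and 0 with DESeq2 size factors (50), total counts (71), no filter (29), the ear tag covariate (26), the replicate block (70), the 2 groups alone (0) or without the shallow libraries (20). The count lower was 6 (110), and 1 with GC correction (34), 0 with the 2 groups alone (0), 3 with these and without TAC+PDE9A-I 5 (88), and 2 without the shallow libraries (84). With the 2 groups alone, miR-369-3p, miR-376a-5p, miR-376c-3p and miR-487b-3p were not tested. Changed arm ratios of members in TAC+PDE5A-I against TAC numbered 2 (66 of all 161 hairpins). They numbered 1 with a pseudocount of 2, the ear tag covariate, the 2 groups alone or without the shallow libraries. Counts over all hairpins in those settings are not given here. With a mean count of at least 50, no member hairpin was tested. Between the drugs, changed arm ratios of members numbered 0 (45 of all 161 hairpins), and 1 without the shallow libraries, where the count over all is not given. With the set of 4 abundant microRNAs out of the total, member shares were 0.0734%, 0.131%, 0.107% and 0.109% in Sham, TAC, TAC+PDE5A-I and TAC+PDE9A-I. TAC+PDE5A-I then no longer overlapped Sham, a result given for this set only. The cause of these shifts was not tested.

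Leaving out single libraries gave 0 to 1 higher in TAC against Sham, 0 to 2 higher and 9 to 16 lower in TAC+PDE5A-I against TAC, and 0 to 1 higher and 5 to 10 lower between the drugs. Changed arm ratios ranged from 0 to 2 in TAC+PDE5A-I against TAC and between the drugs. Counts over all microRNAs or hairpins under these omissions are not given here. These ranges can therefore not be set against a background. Shares ranged from 0.0384% to 0.0417% (Sham), 0.0752% to 0.0837% (TAC), 0.0388% to 0.0475% (TAC+PDE5A-I) and 0.0540% to 0.0673% (TAC+PDE9A-I).

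Signs turned for some members. In TAC+PDE5A-I against TAC, miR-541-5p was 0.21 with upper-quartile scaling, 1.01 with GC correction and 0.037 without the shallow libraries, and miR-410-3p was 1.27 with GC correction. There miR-409-3p was -0.10 without the shallow libraries and -0.25 without TAC+PDE5A-I 4 (-0.25 to 0.47 when single libraries were left out), and miR-134-5p was -0.014 without the filter, -0.15 with GC correction and -0.14, -0.07 and -0.10 without TAC+PDE5A-I 1, 4 and 5. In TAC+PDE9A-I against TAC, miR-541-5p was 0.19 with GC correction, and miR-668-3p was -0.031 with GC correction, -0.16 without the shallow libraries, and without TAC+PDE9A-I 5 -0.17 with all groups (-0.17 to 0.27 when single libraries were left out) and -0.22 with the 2 groups alone. Between the drugs, miR-541-5p was -0.18 with DESeq2 size factors, -0.040 with total counts, -0.16 without the filter, -0.11 with the replicate block, -0.17 with the Wald test, -0.15 and -0.19 with the 2 groups alone (with and without TAC+PDE9A-I 5), and -0.49 to 0.082 when single libraries were left out. There miR-300-3p was 0.19 and 0.07, and miR-410-3p 0.10 and 1.28, with upper-quartile scaling and GC correction, and miR-379-5p was 0.091 without the shallow libraries.

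Replicate numbers did not pair the libraries: over 30 same-numbered pairs the correlation of deviations ran from -0.21 to 0.35, 7 were over 0.1, and 4 of 21 libraries correlated best with their own number. With the replicate block 0 members were higher and 0 lower in TAC against Sham (12 and 2 over all microRNAs). In TAC+PDE5A-I against TAC 2 were higher and 11 lower (112 and 152 over all). In TAC+PDE9A-I against TAC the counts were 0 and 0 (0 and 0 over all). Between the drugs 0 were higher and 6 lower (70 and 102 over all). The all-microRNA median shifted by 0.17 (log2) in TAC against Sham (total counts), and between the drugs by 0.37 (upper quartile), -0.16 (DESeq2 size factors) and 0.28 (GC correction). Depth limits the low members: 3 counts are 1.60 CPM in TAC+PDE5A-I and 0.471 CPM in TAC.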
